A study of Homo sapiens with 12 samples.

Results

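The OAS and IFIT genes are 2 families of interferon-stimulated genes whose products act against viral RNA. The 8 genes described here are OAS1, OAS2, OAS3, OASL, IFIT1, IFIT2, IFIT3 and IFIT5. They were chosen by name after their levels in these libraries were known, as genes that were lower with p63 overexpression in AsPC-1, out of 39099 genes summed from a transcript table, of which 14767 were tested. Their levels are therefore given as a description, and counts of how many of them passed a threshold are given with nothing read from them. RNA was sequenced from AsPC-1 and PANC-1 (ASPC1 and PANC1 in the labels), established human pancreatic cancer cell lines. Each line was studied as mock, with TAp63 overexpression (TAp63 O/E) and with deltaNp63 overexpression (deltaNp63 O/E), which gave 6 groups of 2 libraries labelled as biological replicates. TAp63 and deltaNp63 are forms of the transcription factor p63. TAp63 keeps the amino-terminal transactivation domain, and deltaNp63 starts from a promoter inside the gene and lacks it. The vector, its promoter, the time after delivery and whether the cells were clones or pools are not given in the labels. Nothing says that replicates came from separate cultures, so p-values measure the spread between these libraries, which may be technical.

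OAS1, OAS2 and OAS3 encode 2′-5′-oligoadenylate synthetases, which bind double-stranded RNA and make short chains of adenosine with 2′-5′ links. These chains set off the decay of viral and cellular RNA. OASL has lost the synthetase activity and instead binds the RNA sensor RIG-I. The IFIT proteins are built of tetratricopeptide repeats: IFIT1 and IFIT5 bind the 5′ ends of foreign RNA, and IFIT2 and IFIT3 form complexes with IFIT1. Both families are textbook targets of ISGF3, a transcription factor complex that holds STAT2 and IRF9 and that type I and type III interferons activate, and several are also reached directly by interferon regulatory factors (IRFs).

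Values were TPM, relative transcript abundances, which scale each library to the same sum and correct for transcript length. TPM keep no read depth, so the depth per library is unknown. A library had 12212 to 13161 genes at 1 TPM or more, and replicates correlated across tested genes with Pearson's r from 0.987 to 0.994. TP63 was at most 1.10 TPM in the 4 mock libraries, at least 102 TPM in the TAp63 libraries and at least 245 TPM in the deltaNp63 libraries. The epithelial markers KRT8, KRT18, KRT19, EPCAM and CDH1 summed to between 7131 and 10554 TPM in AsPC-1 and between 3483 and 3851 TPM in PANC-1, where CDH1 was at most 3.74 TPM. EPCAM lay between 1256 and 1410 TPM in AsPC-1 and between 42.6 and 49.5 TPM in PANC-1. The mesenchymal markers were higher in PANC-1: VIM at 4291 to 4943 TPM against 2000 to 2361 TPM in AsPC-1. ZEB1 was at 20.5 to 27.5 against 11.8 to 18.1 TPM, and CDH2 at 19.5 to 22.3 against at most 0.0219 TPM. Among the leukocyte markers, PTPRC, CD3E and MS4A1 were at most 0.0552 TPM in any library, CD14 was at most 0.49 TPM in AsPC-1, and CD68 lay between 90.8 and 126 TPM in AsPC-1 and between 255 and 288 TPM in PANC-1. The fibroblast markers summed to at most 1.53 TPM in AsPC-1, and in PANC-1 to between 81.8 and 112 TPM, nearly all of it COL1A1. The endothelial markers VWF and CDH5 were at most 0.278 TPM. In bulk RNA, fewer cells that carry a transcript and less of it in each cell cannot be told apart.

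The 8 genes lie at 3 places in hg38, all on the plus strand except OASL. IFIT2 (ENSG00000119922, 89283694 to 89309271), IFIT3 (ENSG00000119917, 89327307 to 89377473), IFIT1 (ENSG00000185745, 89392546 to 89406487) and IFIT5 (ENSG00000152778, 89414568 to 89421605) follow each other on chromosome 10. OAS1 (ENSG00000089127, 112905856 to 112933219), OAS3 (ENSG00000111331, 112938051 to 112976460) and OAS2 (ENSG00000111335, 112978395 to 113011723) form a cluster on chromosome 12, and OASL (ENSG00000135114, 121017763 to 121039246) stands apart on the same chromosome. IFIT1, IFIT2 and IFIT3 overlap LIPA on the minus strand, and the 3 clustered OAS genes overlap the antisense RNA gene ENSG00000257452. IFIT2 also overlaps ENSG00000232110, and IFIT3 overlaps the pseudogene IFIT6P. The library kit keeps strand, but whether the quantification used it is not given in the sources used here, so part of these 6 genes' values could belong to the overlapping genes. OASL and IFIT5 overlap no other annotated gene. IFIT1B, the family relative between IFIT3 and IFIT1, was at most 0.211 TPM and is not counted among the 8.

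RefSeq promoter windows (GRCh38.p14, 250 bases before to 50 after a start site) were at hand for 5 of the genes: IFIT1, IFIT5, OAS1, OAS3 and, at 2 start sites, IFIT3. OAS2, OASL and IFIT2 were not matched. ISGF3 and the IRFs bind repeats of GAAA, so each window was searched on both strands for GAAANNGAAA and for GAAANGAAA, which may overlap each other. The stretches below are shown because they hold every match in these windows, and capitals mark the matched bases, which read as TTTC repeats where the match is on the other strand.
IFIT3, start site of IFIT3-202, chr10:89327811-89327894: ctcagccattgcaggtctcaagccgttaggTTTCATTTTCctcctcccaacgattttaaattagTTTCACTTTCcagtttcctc
IFIT3, internal start site, chr10:89332405-89332502: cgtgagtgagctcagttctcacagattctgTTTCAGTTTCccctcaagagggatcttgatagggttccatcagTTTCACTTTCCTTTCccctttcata
IFIT1, chr10:89392477-89392539: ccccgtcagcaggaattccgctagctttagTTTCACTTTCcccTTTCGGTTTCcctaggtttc
IFIT5, chr10:89414493-89414583: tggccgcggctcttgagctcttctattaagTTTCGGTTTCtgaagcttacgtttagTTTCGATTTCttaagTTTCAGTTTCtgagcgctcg
OAS1, chr12:112906915-112906963: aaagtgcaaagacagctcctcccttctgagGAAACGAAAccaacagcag
OAS3, chr12:112938296-112938481: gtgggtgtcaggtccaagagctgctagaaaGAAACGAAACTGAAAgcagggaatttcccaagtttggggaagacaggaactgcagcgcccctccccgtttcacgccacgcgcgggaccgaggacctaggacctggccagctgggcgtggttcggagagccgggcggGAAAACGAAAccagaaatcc

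The first IFIT3 window and the windows of IFIT1, IFIT5 and OAS3 hold GAAANNGAAA 2, 2, 3 and 2 times. The window at the internal IFIT3 start site holds it 2 times, with a GAAANGAAA that overlaps the second. In IFIT1 the matches lie 116 to 107 and 103 to 94 bases before the start site, while in IFIT5 the last one spans the start site itself. The OAS1 window has a single GAAANGAAA, 17 to 9 bases before the start, and OAS3 has a GAAANGAAA that overlaps the first of its GAAANNGAAA matches. Of 35116 RefSeq windows of 300 bases, 3.57% hold GAAANNGAAA, 3.12% hold GAAANGAAA and 6.4% hold either. A match describes the letters and is no evidence of binding in these cells.

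The synthetases were all lower with either p63 form in AsPC-1. OAS1, the smallest of them, measured 315 and 285 TPM in the mock libraries, 133 and 154 TPM with TAp63, and 81.4 and 118 TPM with deltaNp63. The 3 groups did not overlap, and the deltaNp63 replicates were the farthest apart. OAS2, which carries a pair of synthetase domains, measured 137 and 140.0 TPM with mock, 30.6 and 41.8 TPM with TAp63, and 17.8 and 23.1 TPM with deltaNp63. Of the 8 genes it stood lowest relative to mock, at 26.2% of the mock mean with TAp63 and 14.8% with deltaNp63. OAS3, the longest synthetase, measured 168 and 183 TPM with mock, 59.7 and 80.3 TPM with TAp63, and 37.9 and 48.9 TPM with deltaNp63. That placed OAS3 at 39.9% and 24.7% of mock, and OAS1 at 47.9% and 33.3%. OASL was the most abundant of the 8 in AsPC-1 mock and stayed nearest to it: 311 and 321 TPM with mock, 166 and 195 TPM with TAp63, and 122 and 157 TPM with deltaNp63. Its means were 57.1% and 44.2% of mock.

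On the log2(TPM + 1) scale, which understates the difference of low genes, construct minus mock in AsPC-1 was -1.92 for OAS2 with TAp63 (SE 0.17 from limma) and -2.71 with deltaNp63. OAS3 differed by -1.33 and -2.0 (SE 0.17), OAS1 by -1.06 and -1.60 (SE 0.15), and OASL by -0.81 and -1.18 (SE 0.12).

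The IFIT genes were also lower with both forms in AsPC-1. IFIT1, which holds back the translation of RNA that lacks a host cap, measured 223 and 186 TPM with mock, 73.6 and 82.9 TPM with TAp63, and 55.3 and 63.1 TPM with deltaNp63. Its means were 38.3% and 29.0% of mock. IFIT3, which stabilises IFIT1, measured 131 TPM in both mock libraries, 42.0 and 46.7 TPM with TAp63, and 28.6 and 33.3 TPM with deltaNp63. At 33.8% and 23.6% of mock, it was second to OAS2 in distance from mock with each construct. IFIT2, a partner of both, measured 56.8 and 57.8 TPM with mock, 27.1 and 26.9 TPM with TAp63, and 19.7 and 19.2 TPM with deltaNp63. IFIT5, the least abundant of the 8, measured 22.6 and 21.6 TPM with mock, 12.5 and 11.6 TPM with TAp63, and 9.29 and 9.60 TPM with deltaNp63. IFIT2 stood at 47.1% and 33.9% of mock, and IFIT5 at 54.5% and 42.8%.

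In log2(TPM + 1), IFIT3 differed from mock by -1.54 with TAp63 and -2.05 with deltaNp63 (SE 0.10), and IFIT1 by -1.37 and -1.77 (SE 0.10). The differences were -1.06 and -1.51 for IFIT2 (SE 0.11) and -0.82 and -1.14 for IFIT5 (SE 0.11). In each gene every construct library lay below both mock libraries.

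**Figure D1:**
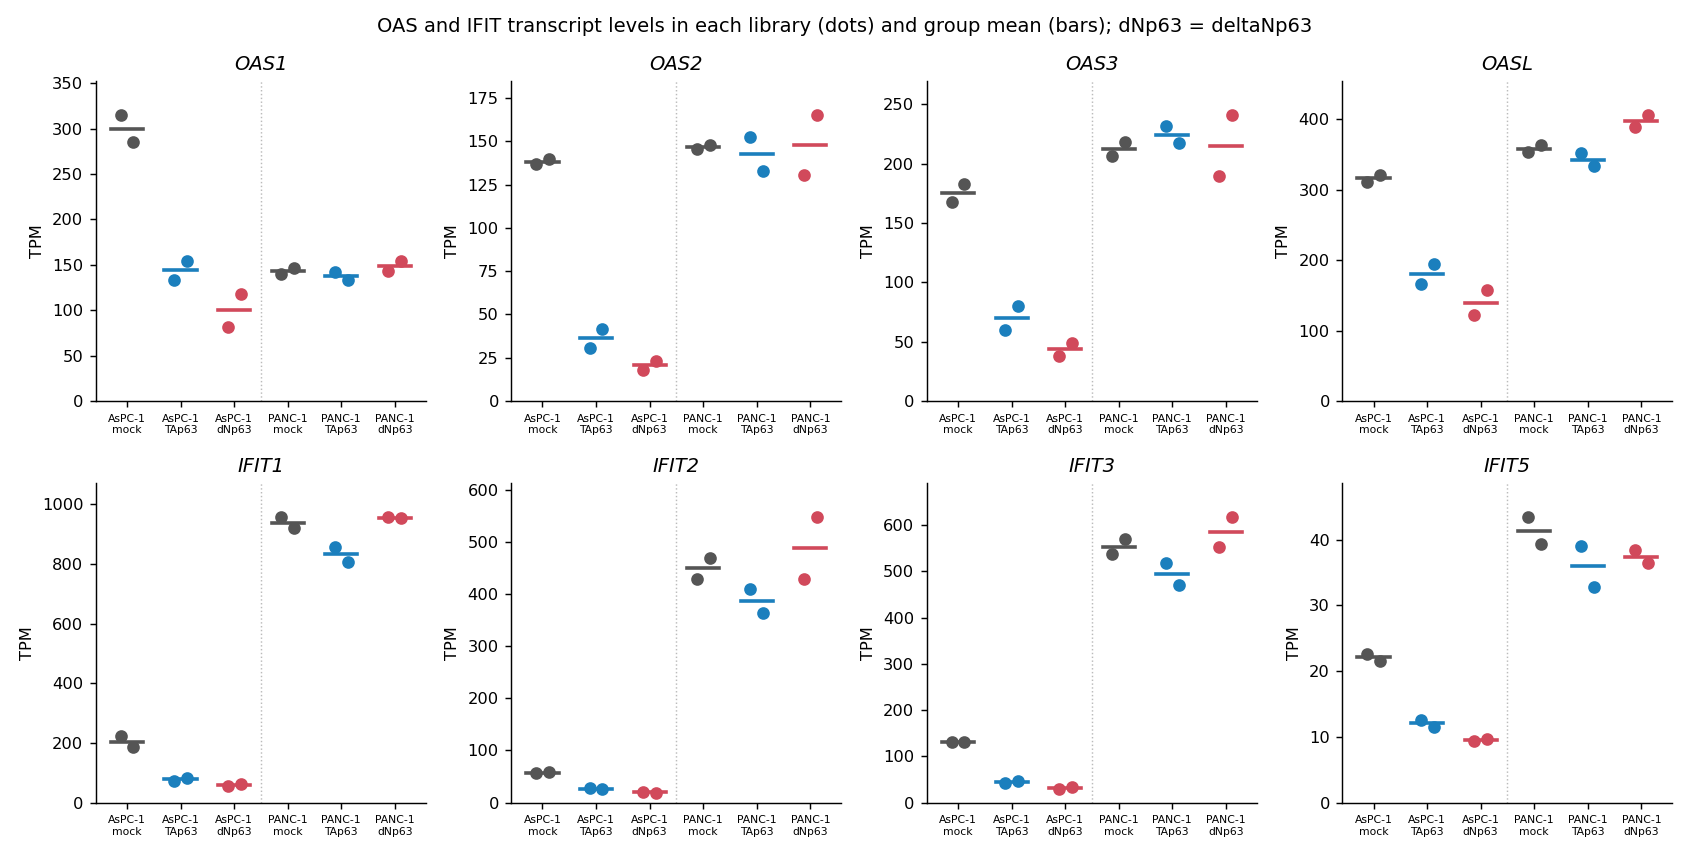
Level of each OAS and IFIT gene in TPM (linear axis from 0) in the 12 libraries. Dots are libraries, bars are means of the 2 replicates, and the dotted line separates AsPC-1 from PANC-1. In AsPC-1 the mock libraries stand above both constructs in all 8 panels, whereas the PANC-1 groups lie close together, and IFIT1, IFIT2 and IFIT3 are far higher in PANC-1 than in AsPC-1.

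All 8 genes had a limma adjusted p under 0.05 in AsPC-1 with TAp63, where 0.609% of the tested genes passed as lower, and all 8 with deltaNp63, where 6.51% passed as lower. Since the genes were selected on these contrasts, nothing is read from these counts. The same holds for the lack of overlap with mock, which 35.4% of all tested genes showed as lower with TAp63 and 41.1% with deltaNp63. The median difference of the 8 was -1.19 with TAp63, against -0.08 over all tested genes, and -1.68 with deltaNp63, against -0.12. Both comparisons use the same mock libraries. Of the 10 cell type markers tested, 0 passed with TAp63 in AsPC-1 and 1 with deltaNp63: CD68, a lysosomal protein gene used as a macrophage marker, fell from 120.4 ± 7.97 to 91.4 ± 0.743 TPM (SD, n = 2; log2 difference -0.39, limma adjusted p 0.0362). That call was lost without AsPC-1 mock replicate 1 (limma adjusted p 0.118), without AsPC-1 mock replicate 2 (0.136), without AsPC-1 deltaNp63 replicate 1 (0.13), without trend (0.0556), with no filter (0.0695) and after median centring (0.203) or quantile normalization (0.0665). The other leukocyte markers were at or near 0 in AsPC-1, and the part of CD68 in the lower levels was not tested.

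These calls rest on the spread shared by all 12 libraries. With a limma model of only the 4 libraries compared, 0 of the 8 passed with either construct. Over all genes 0 passed there, with 1971 at an unadjusted p under 0.05 for TAp63 and 2020 for deltaNp63. With the 6 AsPC-1 libraries 0 of the 8 passed for TAp63 and 2 for deltaNp63. In that model 1 and 8 of all 14767 tested genes passed. For TAp63 the median difference of the 8 was -1.16 without AsPC-1 mock replicate 1 and -1.20 without AsPC-1 mock replicate 2. The background for deltaNp63 also moves with scaling: 94 genes were higher and 961 lower as deposited, 51 and 148 after quantile normalization, and 249 and 170 after median centring, which moved the median of all genes from -0.12 to 0.09. The 8 genes kept their direction, with a median of -1.48 after median centring and -1.60 after quantile normalization.

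**Figure D2:**
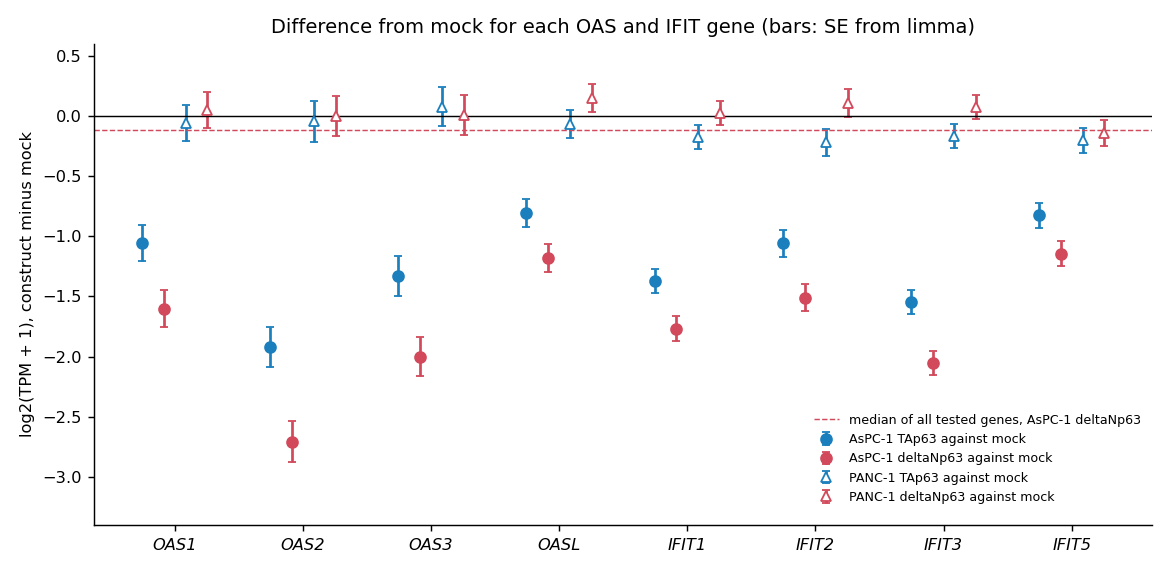
Difference from mock in log2(TPM + 1) for each OAS and IFIT gene, with the SE from limma as bars. Filled circles are AsPC-1 and open triangles PANC-1, blue is TAp63 and red deltaNp63, and the dashed line is the median of all tested genes for AsPC-1 deltaNp63 (-0.12). OAS2 with deltaNp63 (-2.71) is the lowest point, and the PANC-1 points lie between -0.22 and 0.15.

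The AsPC-1 libraries with deltaNp63 were lower than those with TAp63 for every one of the 8 genes. OAS2 showed the widest gap, with TAp63 at 177% of the deltaNp63 mean, a log2(TPM + 1) difference of 0.79 (SE 0.17). OAS3 followed at 0.67, OAS1 at 0.54, IFIT3 at 0.51, IFIT2 at 0.45, IFIT1 at 0.40, OASL at 0.37 and IFIT5 at 0.32. All TAp63 libraries lay above all deltaNp63 libraries in 8 of 8 genes, a pattern seen in 19.6% of all tested genes. The median difference of the 8 was 0.48, against 0.04 over all tested genes. None of the 8 passed the limma threshold, which 0.0203% of tested genes passed (3 genes, with 1170 at an unadjusted p under 0.05). Without AsPC-1 deltaNp63 replicate 2, which was the higher deltaNp63 library in 7 of the 8 genes, the median difference was 0.58. It was 0.35 without AsPC-1 deltaNp63 replicate 1. TP63 itself was higher with deltaNp63, at 245 and 350.4 TPM against 102 and 169.7 TPM with TAp63, so the form of p63 and its amount cannot be told apart.

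In PANC-1 the same genes stayed near mock with both constructs. The OAS genes measured 140.1 and 146 TPM (OAS1), 146 and 148 TPM (OAS2), 207 and 218 TPM (OAS3) and 353 and 364 TPM (OASL) in the mock libraries. With TAp63, OAS1 measured 142 and 133 TPM, OAS2 152 and 133 TPM, OAS3 232 and 217 TPM, and OASL 352 and 334 TPM. With deltaNp63, OAS1 measured 143 and 154 TPM, OAS2 130.3 and 165 TPM, OAS3 189 and 241 TPM, and OASL 389.7 and 406 TPM. The construct libraries overlapped the mock libraries for OAS1, OAS2 and OAS3, and OASL lay just below mock with TAp63 and above it with deltaNp63.

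The PANC-1 mock libraries held IFIT1 at 958 and 920.1 TPM, IFIT2 at 429.7 and 469.5 TPM, IFIT3 at 537 and 570.4 TPM, and IFIT5 at 43.4 and 39.3 TPM. With TAp63 these genes measured 857 and 807, 409 and 364, 519 and 470.4, and 39.0 and 32.8 TPM in the same order, each below both mock libraries. With deltaNp63 they measured 956 and 955, 428 and 548, 553 and 618, and 38.3 and 36.4 TPM, overlapping mock except for IFIT5, which lay below it. The log2(TPM + 1) differences ran from -0.22 for IFIT2 to 0.08 for OAS3 with TAp63, and from -0.14 for IFIT5 to 0.15 for OASL with deltaNp63 (SE between 0.10 and 0.17).

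None of the 8 passed the limma threshold in PANC-1 against mock, where 0.00677% of tested genes passed with TAp63 and 0.0406% with deltaNp63. At an unadjusted p under 0.05, 503 and 345 of all tested genes differed. With TAp63, 5 of the 8 lay below mock without overlap, as did 20.4% of tested genes. Their median was -0.11 with TAp63, against 0.00 over all genes, and 0.04 with deltaNp63, against -0.02. Between the constructs in PANC-1, 0 of the 8 passed in limma, and 0.0271% of tested genes did (4 genes, with 437 at an unadjusted p under 0.05), and the differences ran from -0.33 for IFIT2 to 0.07 for OAS3. The PANC-1 deltaNp63 replicates of IFIT2 lay as far apart as 428 and 548 TPM, so a difference of that size could not be resolved there.

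The difference between the lines was read as the construct effect in PANC-1 minus that in AsPC-1. For deltaNp63 it was 2.71 for OAS2 (SE 0.24), 2.13 for IFIT3 (SE 0.14), 2.01 for OAS3, 1.79 for IFIT1, 1.65 for OAS1, 1.62 for IFIT2, 1.33 for OASL and 1.00 for IFIT5. For TAp63 the values were 1.88 for OAS2, 1.41 for OAS3, 1.38 for IFIT3, 1.20 for IFIT1, 1.00 for OAS1, 0.84 for IFIT2, 0.74 for OASL and 0.62 for IFIT5. All 8 passed the limma threshold for deltaNp63, as did 0.562% of tested genes in this direction, and OAS2, IFIT1 and IFIT3 passed for TAp63, as did 0.0745%. The genes were chosen with these contrasts known, and nothing is read from the counts. The TAp63 count was 0 without any single library of the 8 compared other than AsPC-1 TAp63 replicate 2, whose removal gave 4. The PANC-1 libraries also held more TP63, with 324 and 342 TPM against 102 and 169.7 TPM for TAp63, and 815 and 1187 TPM against 245 and 350.4 TPM for deltaNp63. The part of construct level in these differences was not tested.

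Before any construct, the lines held the families in a different order. In AsPC-1 mock the order of mean TPM was OASL, OAS1, IFIT1, OAS3, OAS2, IFIT3, IFIT2 and IFIT5. In PANC-1 mock it was IFIT1, IFIT3, IFIT2, OASL, OAS3, OAS2, OAS1 and IFIT5. IFIT2 was 7.85 times as high in PANC-1 mock as in AsPC-1 mock, IFIT1 4.59 times, IFIT3 4.22 times and IFIT5 1.87 times. The OAS genes were closer: OAS3 was 1.21 times, OASL 1.13 times and OAS2 1.06 times as high, and OAS1 was lower in PANC-1, at 47.7% of AsPC-1. In 7 of the 8 genes both PANC-1 mock libraries exceeded both AsPC-1 mock libraries, as did 52.9% of tested genes. Each line is a single cell line, so these differences compare these lines.

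Ordered over all 6 groups, OAS1 was highest in AsPC-1 mock (299.8 ± 21.1 TPM, SD, n = 2) and lowest in AsPC-1 deltaNp63 (99.8 ± 26.0 TPM). The 3 PANC-1 groups and AsPC-1 TAp63 lay between, at means of 138 to 149 TPM, and neighbours among these 4 overlapped. OAS2 was at 143 to 148 TPM in the 3 PANC-1 groups and 138 ± 2.35 TPM in AsPC-1 mock, where neighbours again overlapped, and below them came AsPC-1 TAp63 at 36.2 ± 7.93 TPM and AsPC-1 deltaNp63 at 20.5 ± 3.75 TPM. OAS3 was highest in the 3 overlapping PANC-1 groups, at 212 to 224 TPM, above AsPC-1 mock (175 ± 10.4 TPM), TAp63 (70.0 ± 14.6 TPM) and deltaNp63 (43.4 ± 7.83 TPM). OASL was the only one of the 8 in which no neighbouring groups overlapped, from 398 ± 11.3 TPM in PANC-1 deltaNp63 to 139.7 ± 24.7 TPM in AsPC-1 deltaNp63. Its lowest PANC-1 mock library (353 TPM) and highest PANC-1 TAp63 library (352 TPM) nearly touched. The share of all tested genes with such separation was not counted, so nothing is read from it.

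IFIT1, IFIT2 and IFIT3 shared an order: PANC-1 deltaNp63 and PANC-1 mock overlapped at the top, followed without overlap by PANC-1 TAp63, AsPC-1 mock, AsPC-1 TAp63 and AsPC-1 deltaNp63. The share of all tested genes in this order was not counted either. IFIT1 ran from 955 ± 1.16 to 59.2 ± 5.51 TPM, IFIT2 from 488 ± 84.7 to 19.4 ± 0.38 TPM, and IFIT3 from 585 ± 46.0 to 31.0 ± 3.30 TPM (SD, n = 2). IFIT5 was highest in PANC-1 mock (41.4 ± 2.92 TPM), its 2 construct groups in PANC-1 overlapped, and AsPC-1 deltaNp63 was lowest at 9.44 ± 0.219 TPM.

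The transcripts that make up each gene gave a measure that the choice of genes did not use: the share of a gene's TPM held by its leading transcript, the row with the highest mean TPM over all 12 libraries. It was compared between the 6 AsPC-1 and the 6 PANC-1 libraries in the 6 genes with more than a single row. IFIT3, OAS2 and OASL differed. IFIT3-201 (ENST00000371811), which begins 45 bases before the RefSeq internal start site, held 16.0% ± 4.76 of IFIT3 in AsPC-1 and 56.9% ± 1.37 in PANC-1 (SD, n = 6), a difference of 40.8 points (exact permutation test, two-sided, p = 0.00216, Benjamini-Hochberg adjusted over 6 genes 0.00433). The smallest p this design allows is 0.00216. IFIT3 has 2 rows, and IFIT3-201 leads by mean TPM (160.4 against 146 for IFIT3-202), a mean in which the PANC-1 libraries, with more IFIT3, weigh more. By mean share IFIT3-202 is ahead, with 63.6% against 36.4%, and since the shares of both rows sum to the whole gene, the test of IFIT3-202 is the same with the opposite sign. OAS2-202 (ENST00000392583), the reference transcript, has a coding sequence of 2061 bases, against 2157 for OAS2-201. It held 53.8% ± 5.16 of OAS2 in AsPC-1 and 88.9% ± 1.02 in PANC-1. This was a difference of 35.2 points with the same adjusted p of 0.00433 (exact permutation test, n = 6). OASL-201 (ENST00000257570) held 86.4% ± 1.09 and 90.4% ± 0.819, a difference of 3.95 points (exact permutation test, n = 6, adjusted p = 0.00433).

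The leading shares of OAS1 (OAS1-203, 39.1% and 40.3%), OAS3 (OAS3-201, 95.5% and 94.8%) and IFIT1 (IFIT1-201, 98.9% and 99.1%) did not pass, with adjusted p of 0.167, 0.132 and 0.12 in the same exact permutation test. Libraries of a line share that line, so the test compares these libraries and does not treat lines as replicated. They span mock and both constructs, so each SD also holds differences between constructs. With same-numbered libraries of a line and construct paired in a replicate block, p was 0.03125, the smallest that 6 pairs allow, and adjusted p 0.0625 for IFIT3, OAS2 and OASL (exact permutation test). With 3 libraries a line the adjusted p was 0.2 for each of the 3 without replicate 1 and without replicate 2, where p cannot go below 0.1.

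IFIT3-202 (ENST00000371818) and IFIT3-201 have coding sequences of the same length, 1470 bases, and start at 89327997 and 89332484. The first IFIT3 stretch printed above lies before the start of IFIT3-202, and the second surrounds the start of IFIT3-201. In AsPC-1 mock, IFIT3-201 held 17.2% and 15.6% of IFIT3, with TAp63 21.7% and 20.5%, and with deltaNp63 10.8% and 10.4%. The deltaNp63 libraries were the lowest and the TAp63 libraries the highest, without overlap. IFIT3-201 was at 43.5% of its mock TPM with TAp63 and at 15.3% with deltaNp63, and IFIT3-202 at 31.9% and 25.3%. In PANC-1 the share of IFIT3-201 stayed between 54.8% and 58.4% in all 6 libraries.

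OAS2-203 (ENST00000449768) is a short form that ends at 112988805, before the downstream exons of OAS2-202, with a coding sequence of 516 bases against 2061. It held 30% and 30.7% of OAS2 in AsPC-1 mock, 42.2% and 35.7% with TAp63, and 44.5% and 45.7% with deltaNp63. In PANC-1 it held between 4.41% and 5.60%. OAS2-202 was at 22.8% of its AsPC-1 mock TPM with TAp63 and 12.1% with deltaNp63, and OAS2-203 at 33.2% and 22.1%, so both were lower. OAS1 was spread over OAS1-201, OAS1-202 and OAS1-203, whose coding sequences are 1200, 1242 and 1092 bases. They stood at 40.9%, 45.7% and 48.0% of mock with TAp63 in AsPC-1, and at 28.7%, 30.7% and 34.5% with deltaNp63. OAS1-201 held 14.8% to 24.1% of OAS1 in AsPC-1 and 25.9% to 33.5% in PANC-1, whereas the shares of OAS1-202 overlapped. OAS1-205, a retained-intron row without a coding sequence, held 12.1% to 16.5% in AsPC-1 and 4.06% to 6.65% in PANC-1. The shares of these 3 rows were read after their values were seen and were not tested between the lines. OASL-202 (ENST00000339275), the other OASL row, stood at 60.9% and 51.2%, against 56.6% and 43.2% for OASL-201. These shares depend on how the quantification divided sequence that transcripts of a gene have in common, and that step is not given in the sources used here.

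**Figure D3:**
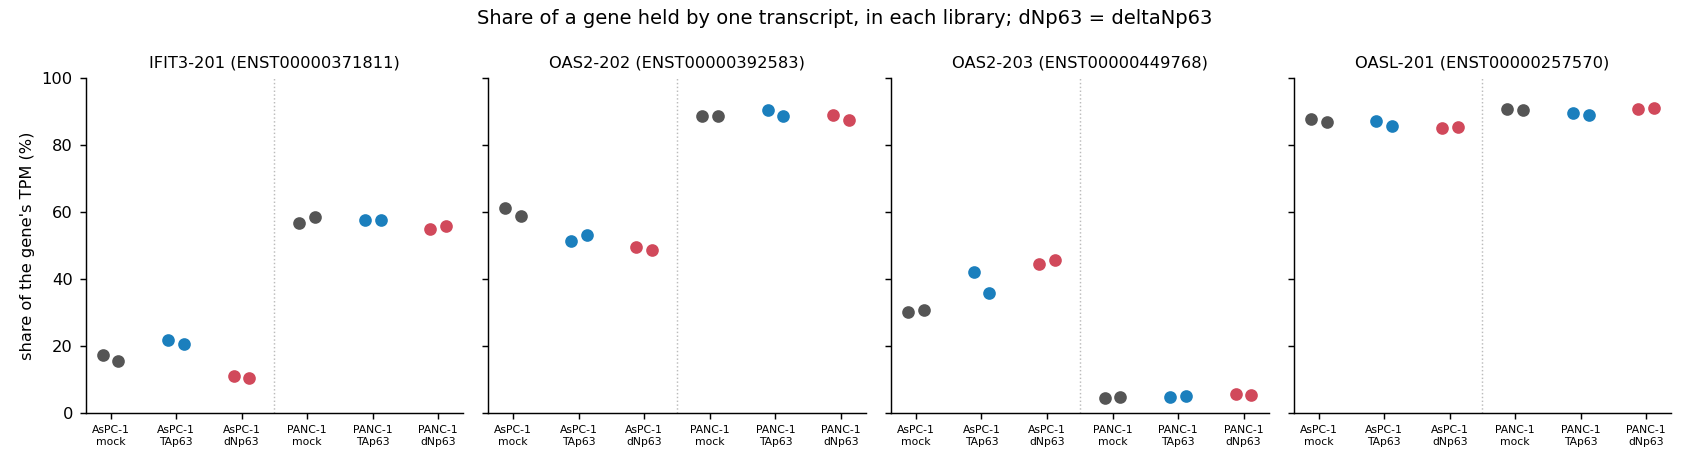
Share of a gene's TPM (%) held by IFIT3-201, OAS2-202, OAS2-203 and OASL-201 in each library. Dots are libraries and the dotted line separates AsPC-1 from PANC-1. IFIT3-201 lies between 10.4% and 21.7% in AsPC-1 and between 54.8% and 58.4% in PANC-1, and OAS2-203 is at least 30% in AsPC-1 and at most 5.60% in PANC-1.

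The rest of the pathway was described by lists of 55 genes, of which 53 were in the matched rows and 48 were tested. ISG15 and IKBKE were not analysed here. In AsPC-1, 7 of the 48 fell with TAp63 and 17 with deltaNp63, against 0.609% and 6.51% of all tested genes that passed as lower, and 0 rose. In PANC-1, 0 passed with either construct. The median of the 48 was -0.20 with TAp63 and -0.30 with deltaNp63, against -0.08 and -0.12 over all tested genes. With a model of only the groups compared, 0 passed with either construct, and 0 of all tested genes did. With only the AsPC-1 libraries 0 passed, where 1 (TAp63) and 8 (deltaNp63) of all tested genes did. Without AsPC-1 mock replicate 1, AsPC-1 mock replicate 2 or AsPC-1 deltaNp63 replicate 1, 9, 8 and 9 passed for deltaNp63, and quantile normalization, median centring and testing without a filter each gave 10.

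The interferon ligands that passed were the type III interferons, which signal through IFNLR1. With TAp63 in AsPC-1, IFNL1 fell from 6.65 ± 0.937 to 3.11 ± 0.597 TPM (SD, n = 2; log2 difference -0.90, limma adjusted p 0.0227), and with deltaNp63 to 2.15 ± 0.451 TPM (-1.28, limma adjusted p 0.00129). IFNL2 fell from 12.2 ± 1.83 TPM to 5.17 ± 0.309 and 4.51 ± 0.0614 TPM (limma adjusted p 0.00241 and 0.000307). IFNL3 fell from 8.13 ± 0.0151 TPM to 2.51 ± 0.76 and 2.63 ± 0.692 TPM (limma adjusted p 0.00377 and 0.00272). IFNL2 and IFNL3 are near-identical copies, so the division between them is uncertain. In PANC-1 mock these genes were far higher, at 829 ± 72.3 TPM for IFNL1, 516 ± 17.4 TPM for IFNL2 and 369 ± 22.4 TPM for IFNL3, and none passed against mock. With deltaNp63 in PANC-1 they measured 1162 ± 83.2, 747 ± 82.1 and 533 ± 64.6 TPM, with log2 differences of 0.49, 0.53 and 0.53. With TAp63 in PANC-1 the log2 differences were 0.18, 0.21 and 0.17. The type I interferon gene IFNB1 was at 0.485 ± 0.587 TPM in AsPC-1 mock and 9.91 ± 0.863 TPM in PANC-1 mock, and it passed in no comparison with mock. In PANC-1 it was at 9.35 ± 2.18 TPM with TAp63 and 14.8 ± 0.312 TPM with deltaNp63. The median log2 difference of the 4 ligands tested was 0.53 with deltaNp63 in PANC-1, against -0.02 over all tested genes. For IFNL1 with TAp63, limma adjusted p was 0.0605 without AsPC-1 mock replicate 1, 0.13 without AsPC-1 mock replicate 2, 0.18 without AsPC-1 TAp63 replicate 1, 0.0719 with no filter and 0.0737 after quantile normalization.

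None of the 9 receptors and kinases passed with either construct in AsPC-1. IFNLR1 averaged 5.13 ± 0.141 TPM in mock cells, 5.21 ± 1.34 TPM under TAp63 and 5.01 ± 0.858 TPM under deltaNp63, and JAK1 at 51.5 ± 2.85, 53.3 ± 3.97 and 50.4 ± 4.71 TPM (SD, n = 2). Both were named after their values were seen.

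Of the 8 STAT and IRF factors described here, 1 fell with TAp63 and 4 with deltaNp63 in AsPC-1, with list medians of -0.49 and -0.56. STAT2, a subunit of ISGF3, fell from 23.9 ± 1.02 TPM in AsPC-1 mock to 13.1 ± 0.396 TPM with TAp63 (log2 difference -0.83, limma adjusted p 0.00377) and to 12 ± 0.586 TPM with deltaNp63 (-0.94, limma adjusted p 0.000842). IRF9, the DNA-binding subunit, measured 159 ± 19.4, 138 ± 9.93 and 133 ± 12 TPM and did not pass (limma adjusted p 0.457 and 0.177). With deltaNp63 IRF1 fell from 138 ± 17.2 to 80.1 ± 5.22 TPM (limma adjusted p 0.00925) and IRF7 from 114 ± 17.1 to 70.3 ± 7.67 TPM (limma adjusted p 0.0255). IRF2 fell with deltaNp63 from 10.1 ± 1.53 to 6.33 ± 0.0782 TPM (limma adjusted p 0.038), and passed neither without AsPC-1 mock replicate 1 (limma adjusted p 0.179) nor without AsPC-1 mock replicate 2 (0.0682), without AsPC-1 deltaNp63 replicate 1 (0.154), with no filter (0.0824) or after median centring (0.102) or quantile normalization (0.132). Limma adjusted p for IRF1 with deltaNp63 was 0.0668 without AsPC-1 mock replicate 2 and 0.0633 without AsPC-1 deltaNp63 replicate 1, and for IRF7 0.106 and 0.133. The IRF7 call was also lost after median centring (limma adjusted p 0.0562) and with no filter (0.0674).

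Of the 10 sensors and adaptors tested, 2 fell with TAp63 and 7 with deltaNp63. RIGI, the cytoplasmic RNA sensor that OASL binds, fell from 67.5 ± 5.81 TPM in AsPC-1 mock to 31.4 ± 2.44 TPM with TAp63 (limma adjusted p 0.00376) and 26.2 ± 0.892 TPM with deltaNp63 (limma adjusted p 0.00046). Its relative DHX58 fell from 22.7 ± 0.56 to 11.2 ± 1.81 and 9.04 ± 2.30 TPM (limma adjusted p 0.0273 and 0.0031). IFIH1, the sensor of long double-stranded RNA, fell with deltaNp63 from 9.31 ± 1.26 to 4.08 ± 0.878 TPM (limma adjusted p 0.0122), as did the endosomal sensor TLR3, from 3.51 ± 0.992 to 1.25 ± 0.419 TPM (limma adjusted p 0.0295). The other 3 that fell with deltaNp63, EIF2AK2, CGAS and STING1, lost the call without AsPC-1 mock replicate 1 (limma adjusted p 0.123, 0.221 and 0.127) and without AsPC-1 mock replicate 2 (0.108, 0.0528 and 0.142). They also lost it with no filter (limma adjusted p 0.0704, 0.0957 and 0.0926), after median centring (0.105, 0.239 and 0.068) and after quantile normalization (0.0513, 0.292 and 0.0907). CGAS and STING1 lost it without AsPC-1 deltaNp63 replicate 1 (limma adjusted p 0.145 and 0.171), and CGAS without AsPC-1 deltaNp63 replicate 2 (0.0624), without trend (0.0565) and with a pseudocount of 0.1 (0.0516). Without AsPC-1 mock replicate 1, limma adjusted p was 0.107 for IFIH1 and 0.159 for TLR3 with deltaNp63 and 0.17 for DHX58 with TAp63, which was 0.129 without AsPC-1 mock replicate 2, 0.217 without AsPC-1 TAp63 replicate 1 and 0.0767 with no filter. TLR3 was also lost without AsPC-1 mock replicate 2 (limma adjusted p 0.052), without AsPC-1 deltaNp63 replicate 1 (0.158), with no filter (0.0775) and after median centring (0.0543) or quantile normalization (0.072), which also ended the IFIH1 call (0.068).

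USP18, which trims ISG15 from proteins and holds back the type I receptor, was the single one of 7 negative regulators to pass. It fell from 60.5 ± 0.985 TPM in AsPC-1 mock to 27.2 ± 4.16 TPM with TAp63 (log2 difference -1.13, limma adjusted p 0.00376) and 17.9 ± 3.12 TPM with deltaNp63 (-1.71, limma adjusted p 0.000135), and lay at 113 ± 4.83, 112 ± 6.11 and 118 ± 8.20 TPM in the PANC-1 groups.

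Of the 10 partners described here through which the 2 families act, 0 passed with TAp63 and 2 with deltaNp63. AKAP7, which has 2′-5′ phosphodiesterase activity in mice, fell with deltaNp63 from 1.17 ± 0.127 to 0.508 ± 0.014 TPM (limma adjusted p 0.04). That call was lost without AsPC-1 mock replicate 1 (limma adjusted p 0.174), without AsPC-1 mock replicate 2 (0.104), without AsPC-1 deltaNp63 replicate 1 (0.153), with no filter (0.089) and after median centring (0.139) or quantile normalization (0.111). Among the cap and translation partners of IFIT proteins, CMTR1, the cap methyltransferase whose mark keeps IFIT1 off host RNA, fell with deltaNp63 from 28.2 ± 1.95 to 17.3 ± 1.26 TPM (limma adjusted p 0.0137). The limma adjusted p for CMTR1 was 0.0628 without AsPC-1 mock replicate 1, 0.0794 without AsPC-1 mock replicate 2 and 0.079 without AsPC-1 deltaNp63 replicate 1. The other 6 partners and the other 2 genes of the OAS product axis did not pass.

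**Figure D4:**
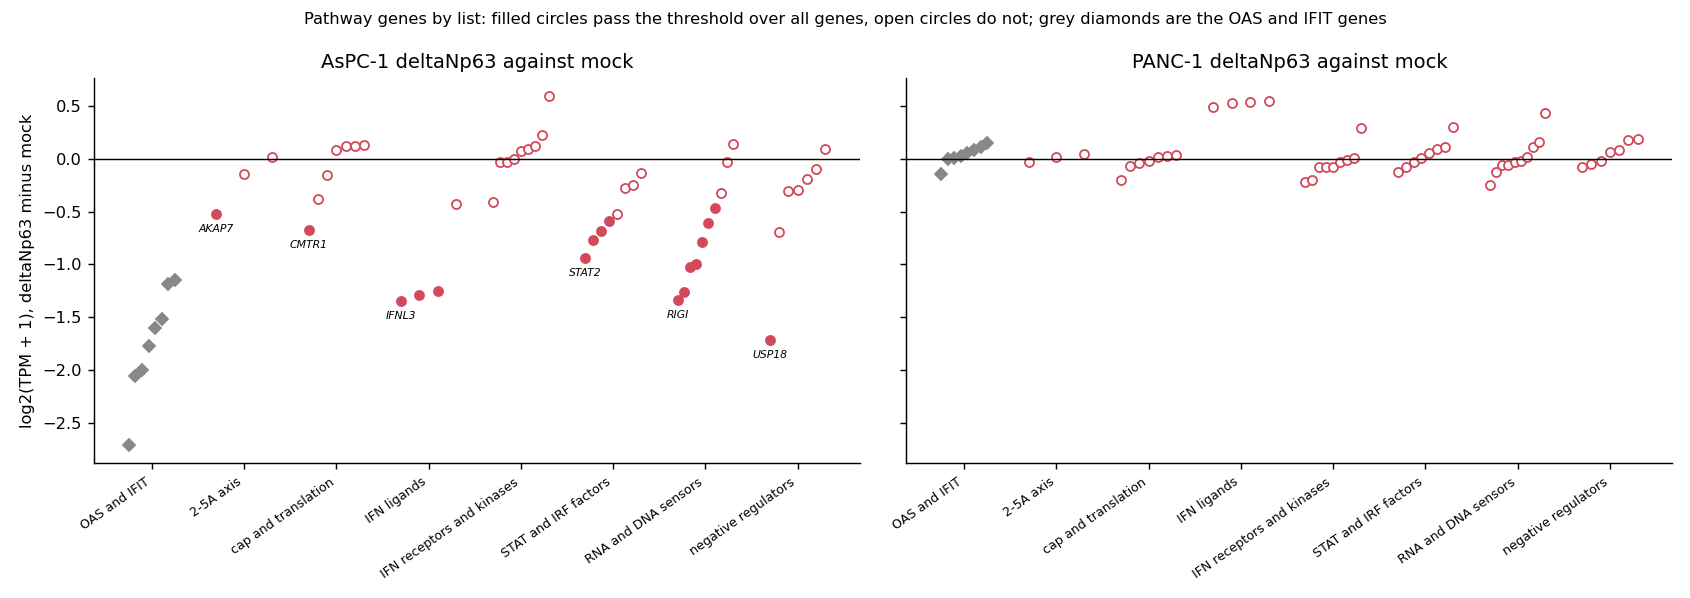
Difference from mock in log2(TPM + 1) with deltaNp63 for the tested genes of each pathway list, in AsPC-1 and PANC-1. Grey diamonds are the 8 OAS and IFIT genes, filled circles passed the limma threshold over all genes, open circles did not, and the lowest gene of a list is named where it passed. USP18 is the lowest circle in the AsPC-1 panel (-1.71), and every circle in the PANC-1 panel is open.

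Around the 3 loci 16 neighbours were also read, taken from the 3 nearest protein-coding genes on each side. Of these 10 were tested, 0 passed with TAp63, and 2 fell with deltaNp63 in AsPC-1, where 0.609% and 6.51% of all tested genes passed as lower. CAMKK2, a kinase gene near OASL, fell from 17.4 ± 0.771 to 10.8 ± 0.64 TPM (limma adjusted p 0.00708). LIPA, the lysosomal lipase gene that overlaps 3 IFIT genes on the other strand, fell from 61.3 ± 2.95 to 43.5 ± 3.52 TPM (limma adjusted p 0.0173). The log2 difference was -0.49 for LIPA, against -1.51 to -2.05 for the 3 IFIT genes that overlap it. Neither CAMKK2 nor LIPA passed without AsPC-1 mock replicate 1 (limma adjusted p 0.0738 and 0.124) or in the smaller models, and LIPA did not without AsPC-1 mock replicate 2 (0.0606), without AsPC-1 deltaNp63 replicate 1 (0.0801) or after median centring (0.068) or quantile normalization (0.0527).

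**Figure D5:**
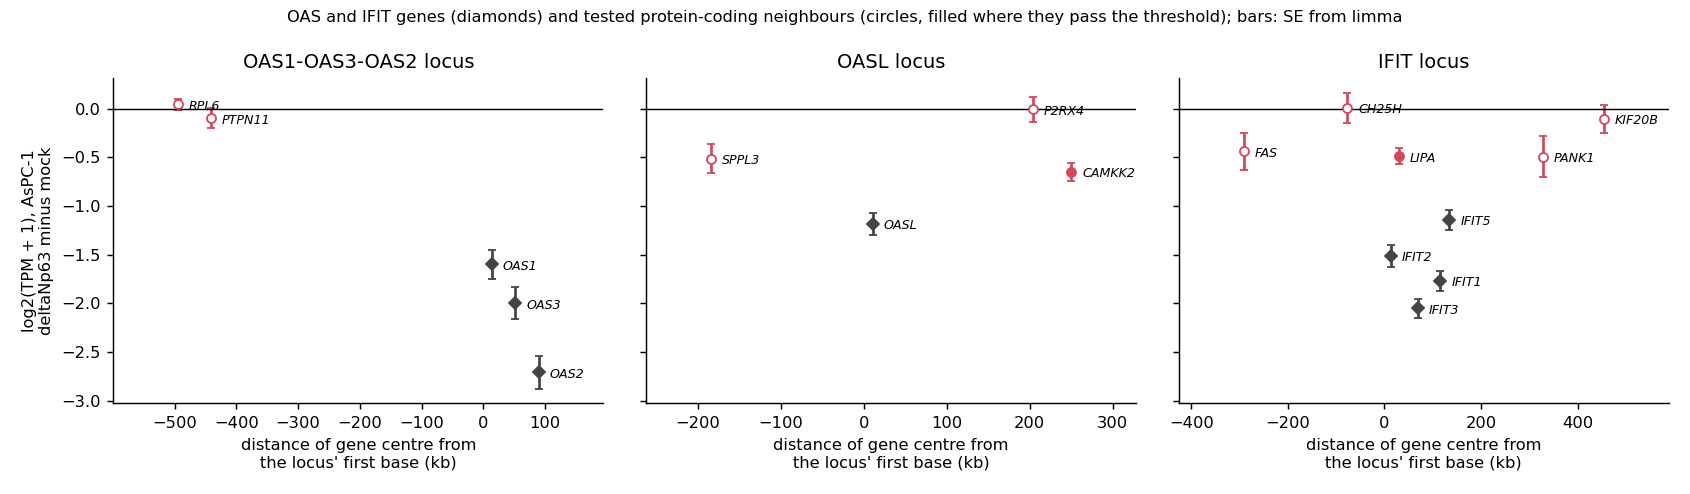
Difference from mock in log2(TPM + 1) with deltaNp63 in AsPC-1 against the distance of each gene's centre from the first base of its locus, in kb, for the OAS cluster, OASL and the IFIT cluster. Diamonds are OAS and IFIT genes, circles are tested neighbours, filled where they passed the limma threshold, and bars are the SE from limma. All 3 clustered OAS genes and all 4 IFIT genes lie below every neighbour drawn in their panels. In the OASL panel OASL lies at -1.18 and CAMKK2 at -0.65, and not every tested neighbour is drawn there, so the panel does not show how OASL stands among its nearest genes.

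The genes whose levels followed the mean of the 8 most closely over the 12 libraries, after the mean of each cell line was removed, were EPSTI1 (Pearson's r 0.997), NMI (0.995), USP18 (0.995), XAF1 (0.993) and IFI6 (0.992). These correlations are a description over libraries that share groups and carry no p-value. They were taken over both lines together and largely restate the AsPC-1 difference on which the 8 were chosen. Among the 8 themselves, r of 28 pairs ran from 0.962 to 0.997 over the 6 AsPC-1 libraries. Over the 6 PANC-1 libraries it ran from -0.27 to 0.98, with a median of 0.65. In AsPC-1, EPSTI1 averaged 44.7, 21.5 and 15.9 TPM in the mock, TAp63 and deltaNp63 groups, and IFI6, the most abundant of the 5, averaged 1219, 454 and 303 TPM. In PANC-1 the group means of EPSTI1 lay between 16.6 and 18.4 TPM and those of IFI6 between 3182 and 3261 TPM.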

How the data were processed

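RNA from 12 libraries was analysed from a table that the authors deposited as TPM values, with 153329 Ensembl transcript rows and columns that each sum to 1000000. Libraries came from a stranded mRNA kit and column-purified RNA, per the labels' protocols. The quantification program, genome build and annotation are not given in the sources used here.

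Rows were paired with genes through GENCODE v44 (139819 rows, 91.2%, holding 89.6% to 90.5% of the TPM) and summed to 39099 genes, and the 13510 unmatched rows were left out. The 14767 genes that reached 1 TPM in 2 or more libraries were fitted as log2(TPM + 1) with limma 3.58.1 in R 4.3.3: a mean for each of 6 groups, eBayes with trend, 6 residual degrees of freedom, and Benjamini-Hochberg adjustment within a contrast with a threshold of 0.05. The code of the fit was run on simulated data with independent noise, which does not check the calls made in these libraries. Transcript shares were compared with an exact permutation test in scipy 1.17.1. Depth is unknown, so precision in limma comes from the spread between the 2 replicates of each group, pooled over the 6 groups and moderated by eBayes.

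A few genes of the lists and neighbours are not reported here and were left out of the counts. The genes, the lists and the tests were chosen with earlier results of these data known. All 8 OAS and IFIT genes passed the filter on low values. Of each pathway list, up to 4 genes that passed in AsPC-1 are named, with the largest difference with deltaNp63, and STAT2 and IRF9 always. EIF2AK2, CGAS, STING1, IFNB1, IFNLR1, JAK1, TYK2, JAK2, CD68 and the neighbours were named after their values were seen. Replicate numbers are shared across groups, and deviations of same-numbered libraries correlated between -0.0945 and 0.293, so a replicate block was an alternative. Other alternatives were no trend, quantile normalization, median centring, no filter, a mean of at least 5 TPM, a pseudocount of 0.1, models of fewer libraries, transcript rows and leaving out each replicate.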

Additional observations from a re-analysis of the deposited data

Results flagged for a closer look

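In limma tests of the construct effect in PANC-1 minus that in AsPC-1, 3 of the 8 OAS and IFIT genes passed for TAp63, as did 0.0745% of all tested genes, and 8 for deltaNp63, as did 0.562%. The genes had been chosen with these contrasts known, so nothing is read from these counts. The count for TAp63 was 0 without any single library of the 8 compared other than AsPC-1 TAp63 replicate 2, whose removal gave 4.

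Genes of the surrounding pathway stood out by the same test. For TAp63 this was IFNL2, with a log2 difference between lines of 1.30. For deltaNp63 the type III interferons gave 1.77 (IFNL1), 1.78 (IFNL2) and 1.87 (IFNL3), the factors STAT2 and IRF1 gave 0.94 and 1.07, the sensors RIGI, IFIH1 and DHX58 gave 1.27, 1.46 and 1.23, and USP18 gave 1.78. Each value is positive, so the construct effect, and not necessarily the level, was higher in PANC-1. Within PANC-1, IFNL1, IFNL2 and IFNL3 differed from mock by 0.49, 0.53 and 0.53 with deltaNp63, and none of them passed. TP63 itself differed by 2.61 for deltaNp63, with a lower mean in PANC-1 than in AsPC-1 mock and a higher one with the construct. Groups of 2 libraries were too small to look for a library that stands apart.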

How the results depend on the processing

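The 8 genes kept their direction in AsPC-1 under every alternative run, while the number that passed depended on the libraries fitted. For TAp63 against mock the count of 8 became 0 with only the groups compared and 0 with only the 6 libraries of the line. Of all tested genes, 0 and 1 passed there. With transcript rows the count was 4, where 45 of 47437 rows passed. Leaving out 1 replicate gave medians of the 8 from -1.31 to -1.09. For deltaNp63 against mock the count became 0 and 2 with those smaller models, where 0 and 8 of all tested genes passed. Its medians ran from -1.86 to -1.58 without a replicate. For TAp63 against deltaNp63 in AsPC-1 the count of 0 became 1 with transcript rows, where 6 of 47437 rows passed. The median ran from 0.35 to 0.58 when a replicate was left out. For the line difference with TAp63 the median ran from 1.00 to 1.20 when a replicate was left out. The count of 3 for this difference became 0 without trend and 0 with transcript rows, where 0 of 47437 rows passed. For deltaNp63 it ran from 6 to 8 under all alternatives.

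Pathway genes went from 7 to 0 and 0 for TAp63 in the smaller models, with 5 to 7 when a replicate was left out. For deltaNp63 they went from 17 to 10 with quantile normalization, 10 with median centring, 10 with no filter and 0 and 0 in the smaller models, with 8 to 21 when a replicate was left out. The cause of these shifts was not tested. The 3 transcript shares that passed became 0 when a replicate was left out (0 to 0), where 3 libraries a line cannot reach the threshold.

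Replicate numbers are shared across groups without a label that ties same-numbered libraries to a batch. With the replicate block, 8, 8, 0 and 0 of the genes passed for the 4 comparisons with mock and 3 and 8 for the line differences, as without it, and in the transcript shares 0 passed in place of 3. In AsPC-1 pathway genes, 9 and 18 passed. The block moved the count over all genes for AsPC-1 deltaNp63 from 1055 to 1633.

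With 2 libraries a group and unknown depth, small differences in PANC-1 are not resolved.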
